A study of Mus musculus with 21 samples.

Results

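Hox genes were followed across the stroma and the tumor cells of a mouse melanoma model, to ask whether their expression differed between tumors that grew under the skin and metastases of the same transplanted tumor in the lung. The members were all genes of the count matrix whose symbol is Hoxa, Hoxb, Hoxc or Hoxd followed by a number, which gave 39 of 32285 genes, namely 11 Hoxa, 10 Hoxb, 9 Hoxc and 9 Hoxd genes. Fragments of the MT-ret melanoma were transplanted subcutaneously into mT/mG mice, male and female animals of 8-10 weeks that carry a membrane-bound tdTomato in all host cells, with no Cre in use. The primary tumor was later resected, and lung metastases were collected afterwards. Tumor microenvironment (TME) cells were sorted as living tdTomato+ cells, in part also CD45-, melanoma (MM) cells as tdTomato- cells, and lungs of mT/mG mice that had received no tumor served as unchallenged controls. The tissue label reads lung for every sample, including the primary tumors, and the site under the skin is taken from the study's methods. The samples were frozen and thawed before sorting, which leaves only cells that survived thawing.

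Hox genes encode homeodomain transcription factors and lie in 4 clusters. Within a cluster the genes are numbered by paralog group from the 3′ to the 5′ end, and in the embryo this order follows their order of activity along the body axis, with low numbers towards the head and high numbers towards the tail. Adult fibroblasts of different body sites are known to keep different combinations of Hox genes, and Hoxa5 is required for the normal formation of the lung. In the GENCODE annotation of GRCm38, the HoxA cluster covers chr6:52155590-52260880 on the minus strand, HoxB chr11:96194316-96368256, HoxC chr15:102921103-103036852 and HoxD chr2:74668310-74765142, the last 3 on the plus strand. Paralog groups 1-5, 6-8 and 9-13 held 15, 8 and 16 of the 39 genes.

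The results below turn on 4 genes that stand for the main patterns: Hoxa5 (high in lung stroma), Hoxa9 (in fibroblasts of the primary tumor), Hoxb8 (in endothelium of the primary tumor) and Hoxd8 (in both classes of the primary tumor). Their promoters, from 250 bases before to 50 bases after the transcription start in RefSeq on GRCm38.p6, are given 5′ to 3′ with any match to AGGTCA or its reverse complement in capitals. AGGTCA is the half-site bound by nuclear receptors, a family that includes the retinoic acid receptors.
Hoxa5, chr6:52204538-52204837, minus strand: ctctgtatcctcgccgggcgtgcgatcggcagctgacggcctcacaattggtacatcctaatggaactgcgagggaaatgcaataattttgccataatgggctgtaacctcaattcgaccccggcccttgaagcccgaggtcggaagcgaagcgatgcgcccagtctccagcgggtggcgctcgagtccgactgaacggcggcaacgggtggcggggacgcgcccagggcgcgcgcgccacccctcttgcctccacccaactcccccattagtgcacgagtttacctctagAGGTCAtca
Hoxa9, chr6:52227321-52227620, minus strand: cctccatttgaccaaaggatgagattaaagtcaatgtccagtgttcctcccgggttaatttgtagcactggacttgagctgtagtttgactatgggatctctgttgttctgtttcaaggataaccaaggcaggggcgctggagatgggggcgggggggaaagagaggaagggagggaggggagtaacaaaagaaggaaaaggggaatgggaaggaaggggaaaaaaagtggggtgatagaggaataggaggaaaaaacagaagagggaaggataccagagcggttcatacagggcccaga
Hoxb8, chr11:96281655-96281954, plus strand: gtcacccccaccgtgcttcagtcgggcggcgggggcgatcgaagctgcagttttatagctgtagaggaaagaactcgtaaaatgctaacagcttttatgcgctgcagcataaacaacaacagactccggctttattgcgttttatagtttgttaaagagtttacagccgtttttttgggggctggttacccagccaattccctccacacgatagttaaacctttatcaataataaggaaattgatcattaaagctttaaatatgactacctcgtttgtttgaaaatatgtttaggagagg
Hoxd8, chr2:74704365-74704664, plus strand: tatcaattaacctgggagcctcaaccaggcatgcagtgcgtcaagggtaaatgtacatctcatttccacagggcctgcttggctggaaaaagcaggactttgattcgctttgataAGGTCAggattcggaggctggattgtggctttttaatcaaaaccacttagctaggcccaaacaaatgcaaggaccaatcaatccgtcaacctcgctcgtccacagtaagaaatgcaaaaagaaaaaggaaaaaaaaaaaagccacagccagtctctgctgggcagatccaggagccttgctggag
The Hoxa5 and Hoxd8 windows each held a match, and those of Hoxa9 and Hoxb8 held none. RefSeq promoters were at hand for 22 of the 39 Hox genes (24 windows), of which 7 held the motif (29.2%), beside 16.3% of 32851 promoters of the same length over all genes. The number of CG dinucleotides was 29 for Hoxa5, 4 for Hoxa9, 13 for Hoxb8 and 6 for Hoxd8, with a median of 14.5 over the Hox windows (range 4-45) and of 7 over all genes. A match is a description of these letters and was not tested as a binding site.

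The deposited matrix held 110283 cell barcodes under 24 library names, fewer barcodes than the study's text gives. Of these names, 5 held the same cells and counts as another one and were left out with their 9924 barcodes. The remaining 100359 cells came from 16 libraries, 4 each of primary tumor TME, lung metastasis TME and unchallenged lung, and 2 each of primary tumor MM and lung metastasis MM. Total UMIs (unique molecular identifiers, one for each captured transcript) ranged from 1777036 to 17577997 for primary tumor TME, from 2750267 to 27672199 for lung metastasis TME and from 6158006 to 53506609 for unchallenged lung. Replicate 6 of primary tumor TME and of unchallenged lung were shallower than the others, with medians of 1203 and 1605 UMIs per cell. The libraries numbered 1-3 pool 3 mice for the primary tumor and 2 mice for the metastasis, and every other library is 1 mouse, so that p-values measure the spread between these libraries. Barcodes found in more than 1 library numbered 1093 and were kept. Of the 39 Hox genes, 33 had at least 1 UMI, and Hoxa11, Hoxa13, Hoxc12, Hoxd11, Hoxd12 and Hoxd13 had none.

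Cells were grouped without the use of Hox genes into classes named from marker genes. Fibroblast-like cells numbered 351 in 2 metastasis libraries, 2297 in 3 primary tumor libraries and 2381 in 3 unchallenged lung libraries, each of which held at least 20 such cells, and all 10 fibroblast markers were detected in every one of these libraries. Endothelium-like cells numbered 1612, 550 and 4615 in 4 libraries of each tissue, again with all 12 endothelial markers detected in each. The classes were named from these same markers, so that their detection is no separate support for the names. Values are given as CPM, the UMIs of a gene divided by all UMIs of the class in the library and scaled to a common total, and Hox genes were compared between tissues and not with each other. The heatmap of Hox genes gives the pooled values. Intervals and limits from counts cover counting error only.

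**Figure D1:**
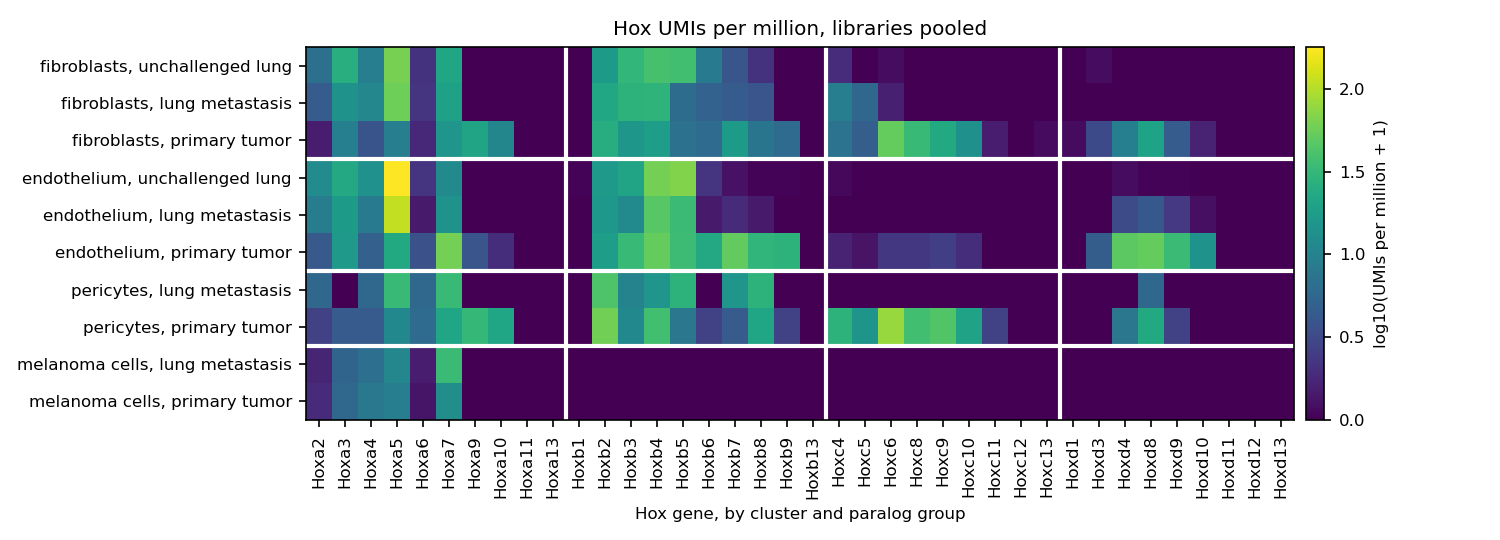
Pooled level of Hox genes (columns, by cluster and paralog group) in each cell class and tissue (rows), as log10(CPM + 1), with libraries pooled. Fibroblasts and pericytes of the primary tumor carry genes of HoxC and of groups 9-10, endothelium of the primary tumor carries HoxB groups 6-9 and some HoxD genes, with Hoxd11-Hoxd13 at 0, and melanoma cells carry the 3′ part of HoxA and little else.

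In fibroblasts, Hox genes split along the clusters between the primary tumor and both lung tissues. No skin without a tumor was among the samples, so that the site under the skin cannot be told apart from the primary tumor itself. Fibroblasts of the unchallenged lung and of the lung metastasis carried Hoxa and Hoxb genes of low paralog number, whereas those of the primary tumor carried less Hoxa5 and, in addition, Hoxa9, Hoxa10, Hoxc6-Hoxc10 and HoxD genes that were at or near 0 in both lung tissues. Genes of groups 1-5 gave 87.0% of the 1365 Hox UMIs in unchallenged lung, 85.4% of 357 in the metastasis and 32.0% of 2032 in the primary tumor. HoxC genes gave 40.2% of the Hox UMIs in the primary tumor, 6.44% in the metastasis and 0.440% in unchallenged lung. The sum of all Hox genes was 441, 334 and 304 CPM in the primary tumor libraries, 191 and 324 CPM in those of the metastasis and 496, 472 and 192 CPM in those of unchallenged lung, and the tissues overlapped.

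Groups 9-13 marked the primary tumor most plainly. Their share of the Hox UMIs was 26.2%, 17.5% and 23.1% in fibroblasts of primary tumor replicates 4, 5 and 6, a mean of 22.3% ± 4.38 (SD, n = 3), from 467 of 2032 UMIs. It was 0 of 357 UMIs in the metastasis, which allows a share of up to 0.840%, and 0 of 1365 in unchallenged lung, which allows up to 0.220%. The groups did not overlap.

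Among the genes of groups 1-5, Hoxa5 was the one called as higher in both lung tissues than in the primary tumor. It was at 51.6 and 82.0 CPM in metastasis replicates 5 and 6, at 13.1, 4.39 and 7.86 CPM in primary tumor replicates 4, 5 and 6, and at 106, 105 and 48.0 CPM in unchallenged lung replicates 4, 5 and 6. The 5 lung libraries lay above the 3 primary tumor libraries. By edgeR's quasi-likelihood test the log2 fold change was 2.91 ± 0.51 (SE, adjusted p = 0.0258) for the metastasis against the primary tumor and 3.27 ± 0.47 (adjusted p = 0.00325) for unchallenged lung against the primary tumor.

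Hoxa3, which patterns pharyngeal organs such as the thymus, Hoxb4, a regulator of blood stem cells, and Hoxb5, which acts in the branching lung of the embryo, passed the test for unchallenged lung and not for the metastasis against the primary tumor. Hoxb5 was at 62.1, 65.5 and 28.0 CPM in unchallenged lung, at 7.88, 0 and 6.62 CPM in the primary tumor and at 4.13 and 12.3 CPM in the metastasis. Unchallenged lung lay above the other tissues, and the metastasis overlapped the primary tumor. Its log2 fold change for unchallenged lung against the primary tumor was 3.17 ± 0.67 (adjusted p = 0.0161). Hoxb4 was at 113, 59.0 and 28.5 CPM in unchallenged lung, at 17.1, 16.1 and 17.2 CPM in the primary tumor and at 28.2 and 28.7 CPM in the metastasis. The primary tumor was lowest without overlap, with a log2 fold change of 1.82 ± 0.46 (adjusted p = 0.0306) for unchallenged lung and of 0.74 ± 0.53 for the metastasis, which did not pass. Hoxa3 was at 36.5, 49.4 and 18.8 CPM in unchallenged lung, at 5.25, 4.39 and 9.31 CPM in the primary tumor and at 12.4 and 16.4 CPM in the metastasis, again lowest in the primary tumor, with a log2 fold change of 2.24 ± 0.49 (adjusted p = 0.0176) for unchallenged lung.

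Hoxb2 and Hoxb3, among the most abundant Hox genes of the class, overlapped between all 3 tissues. Hoxb2 was at 26.3, 17.6 and 24.6 CPM in the primary tumor, 18.6 and 36.9 CPM in the metastasis and 36.5, 25.8 and 12.2 CPM in unchallenged lung. Hoxb3 was at 32.8, 17.6 and 11.2 CPM, 20.0 and 73.8 CPM, and 40.2, 61.2 and 21.9 CPM in the same order. Neither passed the test in a comparison.

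The HoxC genes, of which Hoxc6, Hoxc8 and Hoxc9 pattern the thoracic body wall and skeleton, carried the opposite pattern. Hoxc6 was at 53.9, 64.4 and 49.7 CPM in primary tumor replicates 4, 5 and 6, at 0.688 and 0 CPM in metastasis replicates 5 and 6, and at 0, 0 and 0.244 CPM in unchallenged lung. These are 325 UMIs in the primary tumor against 1 in each lung tissue, with no overlap. The ratio of the pooled levels was 87.8 against the metastasis (exact 95% counting interval 15.7-3479, adjusted p = 0.00726) and 275 against unchallenged lung (adjusted p = 4.2e-04). Hoxc8 was at 48.6, 49.8 and 27.5 CPM and Hoxc9 at 36.8, 26.3 and 19.7 CPM in the primary tumor, and both were at 0 in the 5 lung libraries. With 3 counts as the limit for the pooled UMIs of a tissue at 0, Hoxc8 was at least 18.4-fold lower in the metastasis (adjusted p = 0.0244) and at least 57.5-fold lower in unchallenged lung (adjusted p = 0.00258). Hoxc9 was at least 12.7-fold lower (adjusted p = 0.0416) and at least 39.7-fold lower (adjusted p = 0.00424). Hoxc10, at 23.6, 7.32 and 11.6 CPM in the primary tumor (79 UMIs) and 0 elsewhere, did not pass the filter on low counts and was not tested.

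Hoxa9, which acts in the posterior trunk and in blood stem cells, and Hoxd4 and Hoxd8 followed HoxC. Hoxa9 was at 30.2, 11.7 and 19.2 CPM in the primary tumor, Hoxd8 at 27.6, 21.9 and 17.4 CPM and Hoxd4 at 15.8, 14.6 and 6.41 CPM, and all 3 were at 0 in every library of both lung tissues. Against unchallenged lung they passed the test, with Hoxa9 at least 34.9-fold (adjusted p = 0.00855), Hoxd8 at least 33.8-fold (adjusted p = 0.00541) and Hoxd4 at least 14.9-fold lower (adjusted p = 0.0237). Against the metastasis, with 2 libraries, they did not (adjusted p = 0.0684 for Hoxa9, 0.0509 for Hoxd8 and 0.194 for Hoxd4). Hoxa10 (61 UMIs), Hoxb9 (32 UMIs) and Hoxd9 (22 UMIs) were likewise found in fibroblasts of the primary tumor alone, at 7.32-13.1, 1.46-7.88 and 2.63-4.39 CPM, and were too low to be tested. Hoxd4 shares exons with Hoxd3 on the same strand and Hoxc10 with Hoxc5, and the handling of reads in those exons may have affected the counts of both members.

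**Figure D2:**
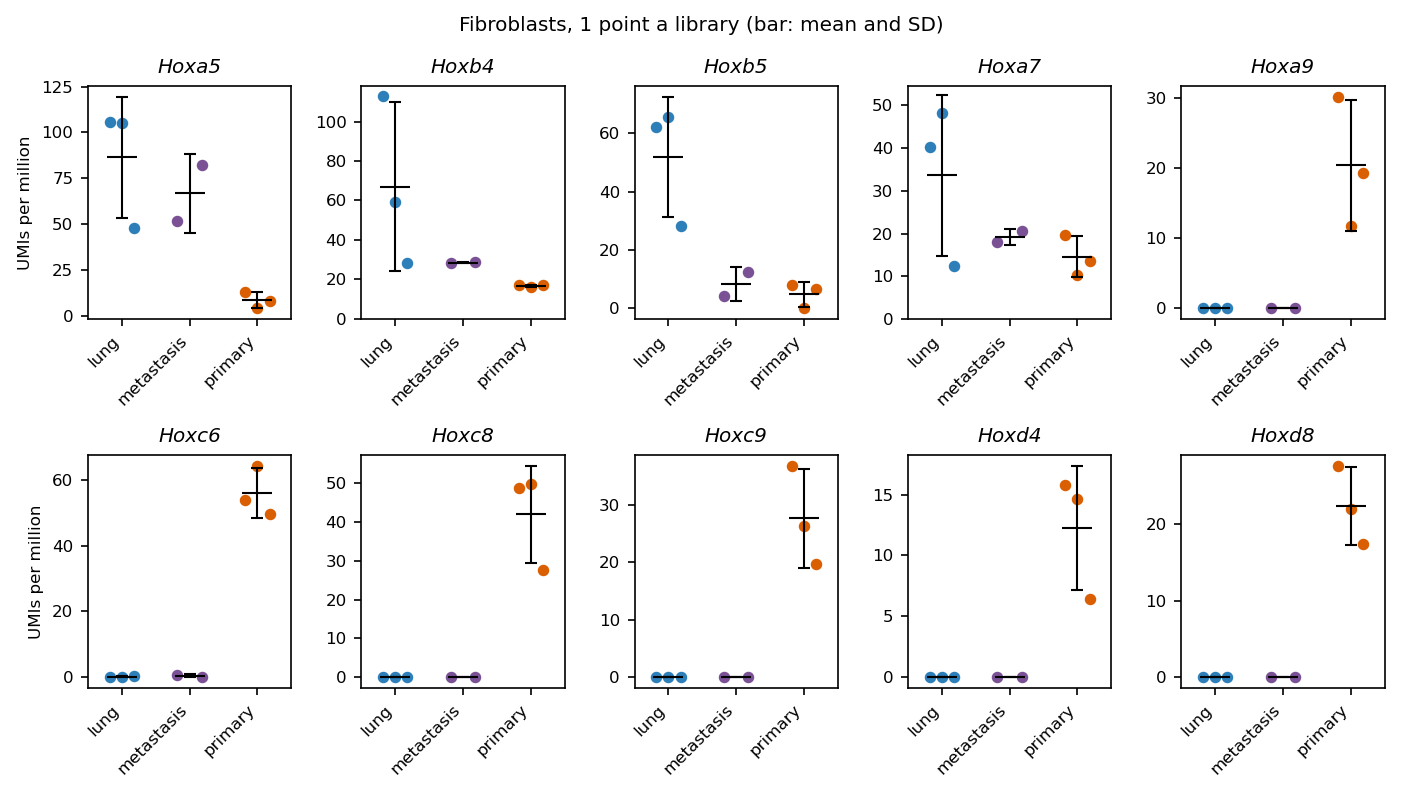
CPM of 10 Hox genes in fibroblasts (y axes, linear scale) for each library of the 3 tissues (x axis); points are libraries, bars the mean and SD. Hoxa5 is higher in the 5 lung libraries than in the 3 primary tumor libraries, and Hoxa9, Hoxc8, Hoxc9, Hoxd4 and Hoxd8 have points above 0 in the primary tumor alone.

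Of the 39 Hox genes, 15 passed the filter on low counts in fibroblasts. For the metastasis against the primary tumor 4 were called at an adjusted p under 0.05, 1 higher and 3 lower, where 1.44% of all 10387 genes tested were called (1.14% higher and 0.308% lower). For unchallenged lung against the primary tumor 10 were called, 4 higher and 6 lower, where 12.2% of all genes were called (6.89% higher and 5.30% lower). For the metastasis against unchallenged lung, 0 were called by edgeR (1.40% of all genes), 1 had an unadjusted p under 0.05 (Hoxb5, log2 fold change −2.98 ± 0.87, adjusted p = 0.112) and DESeq2 called 1. These comparisons share the primary tumor libraries. Hoxa9, Hoxc6, Hoxc8, Hoxc9, Hoxd4 and Hoxd8 had at most 1 UMI in each lung tissue and passed the filter through the primary tumor. The filter thus in part set the counts of lower genes and the medians. The median log2 fold change of the Hox genes tested was −0.72 for the metastasis and −0.10 for unchallenged lung against the primary tumor, beside 0.01 and 0.04 over all genes, and was the same with genes at 0 set at their bound. For the 7 genes of groups 1-5 that were tested the medians were 0.74 and 1.82. Hoxb7 was the tested gene nearest to a call for unchallenged lung against the primary tumor, at 3.65, 6.44 and 2.19 CPM against 23.6, 14.6 and 14.9 CPM (log2 fold change −2.25 ± 0.67, adjusted p = 0.0552).

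The calls against the metastasis rest on 2 libraries of 310 and 41 cells, and leaving out either of them left 0 calls, while leaving out any 1 primary tumor library left 1. Without primary tumor replicate 6, 6 genes were called for unchallenged lung. With the sequencing run as a term, or within run 3 alone, 3 were called for the metastasis (Hoxc9 adjusted p = 0.0541 and 0.0618), and 10 and 7 for unchallenged lung. The class also held cells led by markers of other types. In primary tumor replicate 6 the melanoma list summed to 5167 CPM, beside 688 and 1188 CPM in replicates 4 and 5 and 3788 and 918 CPM in metastasis replicates 5 and 6, and unchallenged lung replicate 6 carried macrophage markers at 7947 CPM. Without the subclusters led by such markers, 6 Hox genes were called for the metastasis (1 higher, 5 lower) and 12 for unchallenged lung against the primary tumor. Without the mesothelial-like subcluster, which left 1 metastasis library, the 4 calls for the metastasis were lost by edgeR (Hoxc6, adjusted p = 0.0602, Hoxa5 and Hoxc8, both 0.202, and Hoxc9, 0.229), while their fitted log2 fold changes were −9.61, 2.92, −9.13 and −8.61, beside −6.41, 2.91, −9.13 and −8.52 with it. For unchallenged lung 9 genes were then called, with Hoxb4 (log2 fold change 1.78, adjusted p = 0.0664) and Hoxd4 (−7.37, adjusted p = 0.0509) no longer among them.

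The fibroblast class was clustered again without Hox genes, and different subclusters held most of it in the 3 tissues. Counted over all TME and lung libraries, those with fewer than 20 such cells included, 1470 primary tumor cells lay in a subcluster led by melanoma genes (1458 of them in replicate 6) and 494 and 213 in 2 subclusters with parenchymal fibroblast markers. Of the metastasis cells 245 were mesothelial-like. Of the unchallenged lung cells 721 and 86 were alveolar-like, 132 adventitial-like and 55 mesothelial-like, and 546, 517 and 328 lay in subclusters led by ciliated, macrophage and AT-2 genes. The pattern was therefore also read within 1 subcluster, number 8, which was adventitial-like and held 132 cells of unchallenged lung, 22 of the metastasis and 19 of the primary tumor. In its primary tumor cells HoxC and HoxD genes of groups 1-8 summed to 156 CPM and groups 9-13 to 75.1 CPM. In its unchallenged lung cells the same sums were 2.48 and 0 CPM, and in its metastasis cells both were 0. Hoxc8 had 19 UMIs in the 19 primary tumor cells and 0 in the others, whereas Hoxa5 had 0 UMIs there, 53 in unchallenged lung and 8 in the metastasis. With so few cells these are sums over libraries with no test.

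The pattern of the primary tumor was seen in each of its larger subclusters. HoxC and HoxD genes of groups 1-8 summed to 151, 108 and 244 CPM in the 2 parenchymal-like subclusters and in adventitial-like subcluster 12, and groups 9-13 to 75.5, 94.4 and 92.0 CPM. In the subcluster led by melanoma genes they were lower, at 33.7 and 54.3 CPM, with 98.9 CPM for Hoxa and Hoxb genes of groups 1-8. In the alveolar-like, AT-2-led, ciliated-led and macrophage-led subclusters of unchallenged lung, groups 9-13 were at 0 and HoxC and HoxD genes of groups 1-8 at 0-1.80 CPM.

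**Figure D3:**
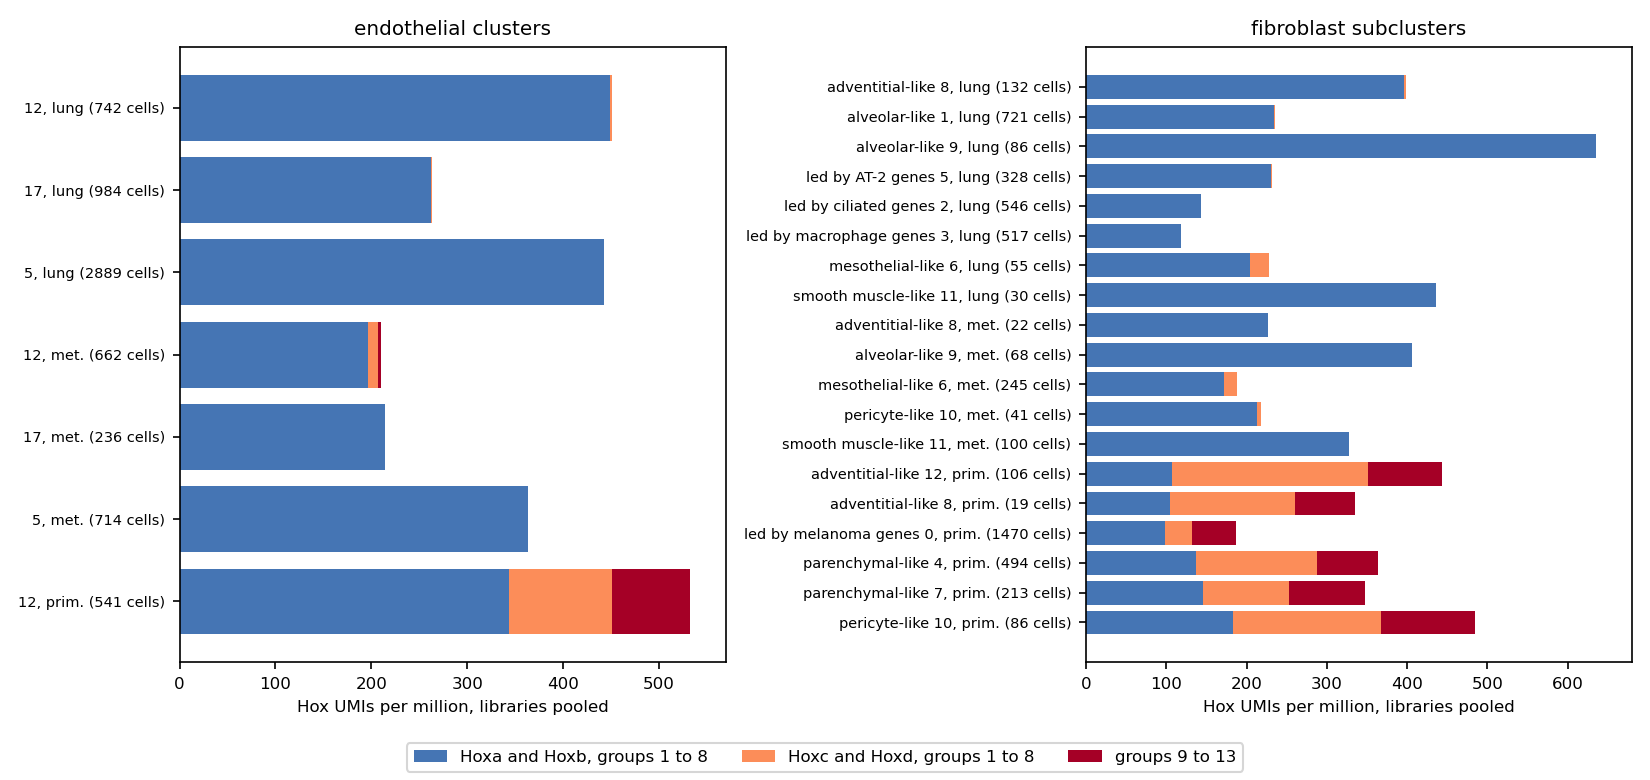
Stacked sums of Hox UMIs in CPM (x axis, libraries pooled) in the endothelial clusters (left) and fibroblast subclusters (right) with at least 19 cells of a tissue, for Hoxa and Hoxb genes of groups 1-8, Hoxc and Hoxd genes of groups 1-8, and groups 9-13 of all clusters. The primary tumor bars shown all carry the last 2 classes, and the lung and metastasis bars carry little of them or none.

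An exception within the lung was the 3′ end of HoxC in mesothelial-like cells, which line the lung surface. Hoxc4 and Hoxc5 together had 20 UMIs in 19 of the 245 mesothelial-like cells of the metastasis (13 UMIs in replicate 5 and 7 in replicate 6, 15.7 CPM) and 3 UMIs in 3 of the 55 of unchallenged lung (23.6 CPM). The other fibroblasts had 2 UMIs in the metastasis (4.16 CPM), 2 in unchallenged lung (0.384 CPM) and 65 in the primary tumor (10.3 CPM). Hoxc6-Hoxc13 had 1 UMI in the mesothelial-like cells of the metastasis and 0 in those of unchallenged lung, so that all but 1 of the HoxC UMIs of these cells lay in groups 4 and 5. Over the whole class, Hoxc5 was at 4.13 and 8.20 CPM in the metastasis, at 2.63, 5.85 and 3.72 CPM in the primary tumor and at 0 in unchallenged lung (24 UMIs in the primary tumor and 8 in the metastasis, not tested).

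Cell by cell, the same contrast was seen at equal depth. With each cell thinned to 1000 UMIs, 23.4%, 18.3% and 9.53% of the fibroblasts of primary tumor replicates 4, 5 and 6 had a UMI of any HoxC or HoxD gene, against 1.94% and 5.41% in the metastasis and 1.32% and 0.154% in unchallenged lung replicates 5 and 6. In unchallenged lung replicate 4 it was 0 of 57 cells, which allows a share of up to 5.26%. Metastasis replicate 6 held 41 cells of the class before thinning, so that its 5.41% rests on few cells. Its mesothelial-like cells had 7 UMIs of Hoxc4 and Hoxc5 before thinning. Before thinning the shares were 52.6%, 63.5% and 18.7% in the primary tumor, at median depths of 4351, 5226 and 1124 UMIs, and 534 cells of replicate 6 were too shallow to be thinned. Macrophages, which come from blood-forming cells, were read beside them. In the 2 primary tumor libraries that held enough of them, 0% and 0.278% of thinned macrophages had such a UMI. Before thinning these shares were 0.234% and 0.905%, at median depths of 4950 and 5001 UMIs. In all metastasis and unchallenged lung libraries the thinned share was 0%. Whether macrophages show the background of free RNA was not tested. Primary tumor replicates 5 and 6 held too few macrophages to give a share of their own.

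Pericytes, the contractile cells around small vessels, were few, and no test was made at the minimum of 10 cells set for them, which only replicate 5 of the metastasis and no unchallenged lung library reached. The 86 primary tumor pericytes had 284 Hox UMIs, of which HoxC genes gave 45.1%, groups 6-8 gave 38.7% and groups 9-13 gave 24.3%. The 41 metastasis pericytes had 47 Hox UMIs with 0 from HoxC, 38.3% from groups 6-8 and 0 from groups 9-13.

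Hoxc6 was at 49.1, 77.0, 71.4 and 95.9 CPM in pericytes of primary tumor replicates 1-3, 4, 5 and 6 (46 UMIs), and at 0 in metastasis replicates 5 and 6, or at least 5.66-fold lower. Hoxc8 was at 24.5, 33.0, 53.5 and 40.0 CPM (21 UMIs) and Hoxc9 at 73.6, 49.5, 35.7 and 16.0 CPM (25 UMIs) in the primary tumor, and both were at 0 in the metastasis, at least 2.58-fold and 3.07-fold lower. The groups did not overlap for these 3 genes, but they met the naming rule of 0 UMIs in 1 tissue and at least 20 in another. The lack of overlap thus follows from the choice and carries no weight of its own. Some values are from 5, 7 or 10 cells. Hoxb2 overlapped, at 49.1, 60.5, 35.7 and 63.9 CPM in the primary tumor and 42.8 and 34.7 CPM in the metastasis. Hoxb4 was at 98.1, 38.5, 35.7 and 7.99 CPM against 10.7 and 34.7 CPM and overlapped as well. The 6 pericytes of unchallenged lung had 15 Hox UMIs in all, 0 of them of HoxC, HoxD or groups 9-13.

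**Figure D4:**
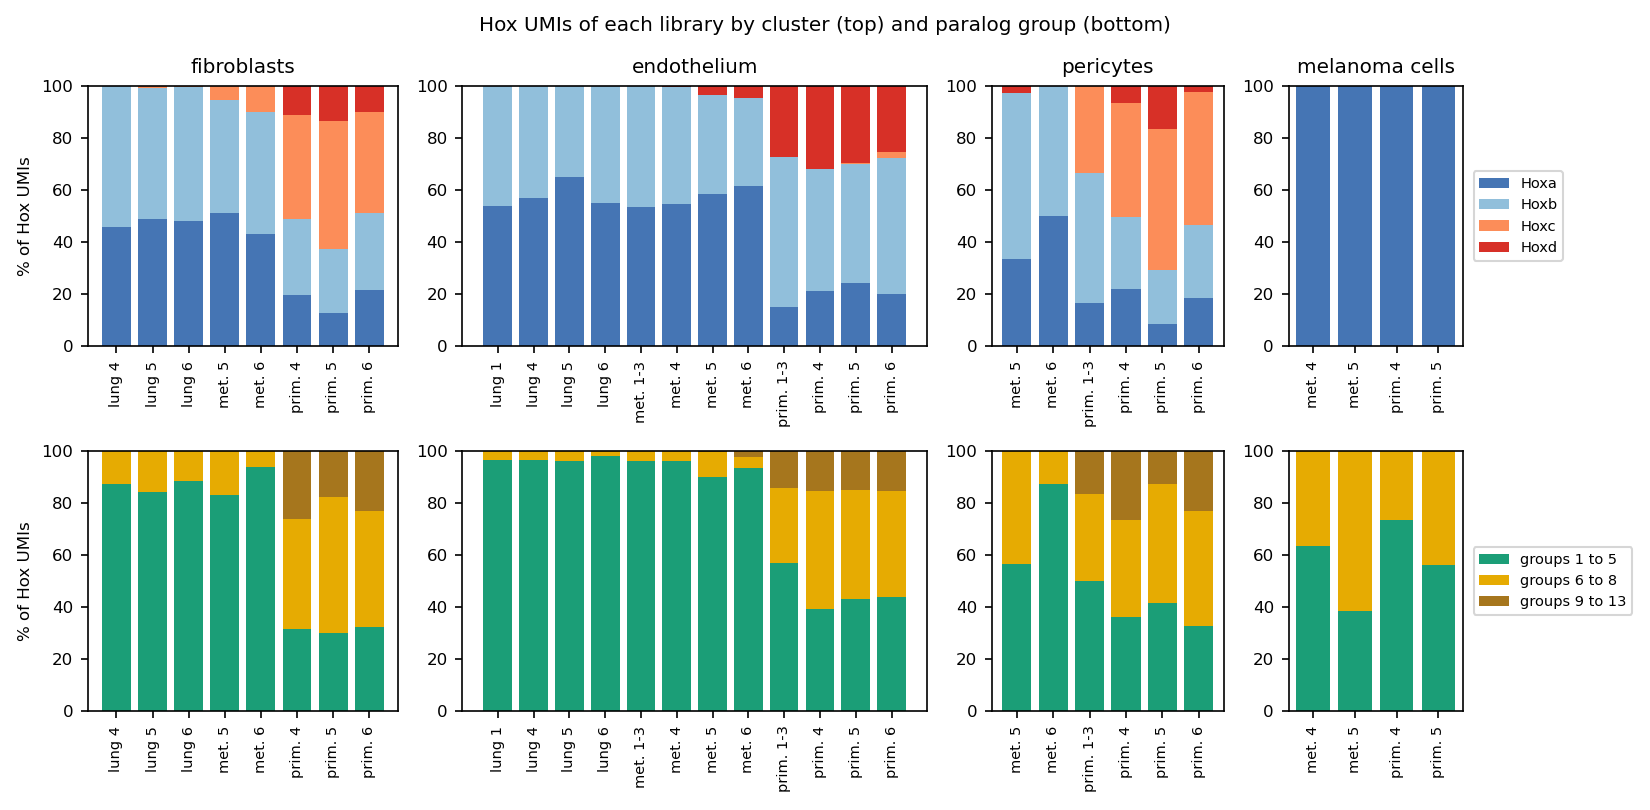
Share of Hox UMIs in percent (y axes) by cluster letter (upper panels) and by paralog group (lower panels) in each library (x axis) of 4 cell classes, for libraries with at least 8 Hox UMIs. Groups 9-13 reach 17.5-26.2% in fibroblasts and 14.1-15.5% in endothelium of the primary tumor, and melanoma cells are nearly all HoxA in both organs.

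Endothelium, the inner lining of vessels, differed between the primary tumor and both lung tissues as well, but through other genes. Endothelial cells of the primary tumor carried Hoxa7, Hoxb6-Hoxb9 and HoxD genes and almost no HoxC, whereas those of unchallenged lung and of the metastasis carried mostly Hoxa5 with Hoxb4 and Hoxb5. Groups 1-5 gave 96.5% of 6739 Hox UMIs in unchallenged lung, 92.5% of 1180 in the metastasis and 43.7% of 1623 in the primary tumor. HoxD genes gave 28.1% in the primary tumor, 2.63% in the metastasis and 0.0742% in unchallenged lung. HoxC genes had 19 UMIs in the primary tumor, 17 of them in replicate 6, 0 in the metastasis and 2 in unchallenged lung. The sum of all Hox genes was 530, 268 and 399 CPM in the primary tumor, the metastasis and unchallenged lung.

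Hoxa5 was at 148, 197, 80.8 and 138 CPM in endothelium of metastasis replicates 1-3, 4, 5 and 6. It was at 20.0, 15.3, 28.4 and 23.5 CPM in the primary tumor replicates of the same numbers and at 153, 164, 205 and 185 CPM in unchallenged lung replicates 1, 4, 5 and 6. All 8 lung libraries lay above the 4 primary tumor libraries, with log2 fold changes of 2.57 ± 0.29 (adjusted p = 8.9e-05) for the metastasis and 2.88 ± 0.28 (adjusted p = 4.3e-06) for unchallenged lung. With cells thinned to 1000 UMIs, 8.50-18.3% of metastasis, 0-2.04% of primary tumor and 13.9-16.4% of unchallenged lung endothelial cells had a Hoxa5 UMI, beside 0-1.18%, 0% and 0-3.40% of macrophages. Before thinning the endothelial shares were 16.9-49.6%, 7.84-10.3% and 25.5-43.2%, at median depths of 1580-6294 UMIs in endothelium and 1531-7348 UMIs in macrophages.

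Hoxa7, a gene of the middle of the same cluster with a role in the thoracic axial skeleton, went the other way. It was at 28.0, 68.7, 80.9 and 49.2 CPM in the primary tumor, at 5.47, 17.7, 13.3 and 9.48 CPM in the metastasis and at 9.38, 9.76, 14.4 and 6.11 CPM in unchallenged lung. The primary tumor was highest without overlap, and the log2 fold changes were −2.27 ± 0.37 (adjusted p = 9.0e-04) for the metastasis and −2.62 ± 0.33 (adjusted p = 3.2e-05) for unchallenged lung.

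The HoxB cluster was split in its middle. Hoxb3, Hoxb4 and Hoxb5 overlapped between the tissues. Hoxb4 was at 51.9, 49.6, 61.0 and 46.2 CPM in the primary tumor, 109, 77.3, 29.0 and 67.7 CPM in the metastasis and 71.7, 62.5, 51.4 and 46.2 CPM in unchallenged lung, with a log2 fold change of 0.22 ± 0.31 for the metastasis against the primary tumor. Hoxb5 was at 75.9, 26.7, 29.8 and 33.3 CPM, 49.2, 64.4, 28.3 and 20.3 CPM, and 59.6, 59.0, 66.3 and 117 CPM in the same order. Hoxb3 ranged from 26.7 to 36.0 CPM in the primary tumor, from 6.30 to 30.6 CPM in the metastasis and from 13.4 to 27.0 CPM in unchallenged lung. These 3 genes did not pass the test for the metastasis against the primary tumor (adjusted p = 0.0775 for Hoxb3).

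From Hoxb6 on, among genes that pattern the thoracic axis, the primary tumor stood apart. Hoxb7 was at 39.9, 53.4, 56.8 and 46.9 CPM in its 4 libraries, at 0, 0, 1.40 and 0 CPM in the metastasis and at 0.670, 0.291, 0.169 and 0 CPM in unchallenged lung, which gave log2 fold changes of −5.81 ± 0.52 (adjusted p = 2.7e-05) and −7.23 ± 0.46 (adjusted p = 1.2e-07). Hoxb6 was at 20.0, 12.7, 25.5 and 25.7 CPM in the primary tumor, with 2 UMIs in all of the metastasis and 0.845-2.62 CPM in unchallenged lung (log2 fold change −4.08 ± 0.49, adjusted p = 2.1e-05). Hoxb8 was at 20.0, 29.3, 28.4 and 31.8 CPM in the primary tumor, with 90 UMIs there, 2 in the metastasis and 1 in unchallenged lung. For each of these genes the primary tumor lay above both lung tissues without overlap, which follows in part from naming genes that were called. The ratio of pooled Hoxb8 levels was 64.7 (exact 95% counting interval 17.4-542, adjusted p = 1.1e-04) for the primary tumor against the metastasis. Hoxb9 was at 20.0, 17.8, 24.1 and 36.3 CPM in the primary tumor and at 0 in the metastasis, or at least 40.2-fold lower there (adjusted p = 1.6e-04), with 1 UMI in unchallenged lung.

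HoxD genes formed the other set of the primary tumor endothelium. Hoxd4 was at 51.9, 45.8, 52.5 and 44.7 CPM in primary tumor replicates 1-3, 4, 5 and 6, at 0, 0, 2.45 and 4.06 CPM in the metastasis and at 0, 0.291, 0.169 and 0 CPM in unchallenged lung. Hoxd8 was at 39.9, 48.3, 56.8 and 52.2 CPM, at 0, 1.61, 3.85 and 2.71 CPM, and at 0, 0, 0.169 and 0 CPM. Hoxd9 was at 43.9, 38.2, 46.8 and 21.2 CPM, at 0, 0, 0.350 and 6.77 CPM, and at 0, 0.146, 0 and 0 CPM. The primary tumor lay above both lung tissues without overlap for all 3, which were named because they were called. The lack of overlap thus carries no weight of its own. In the metastasis the log2 fold change against the primary tumor was −4.45 ± 0.46 for Hoxd4 (adjusted p = 5.7e-05), −4.09 ± 0.40 for Hoxd8 (adjusted p = 3.6e-05) and −4.55 ± 0.71 for Hoxd9 (adjusted p = 7.1e-04). Against unchallenged lung, which had 1 to 3 UMIs of each, the ratios of the pooled levels were 267, 867 and 563. Hoxd10, which with Hoxd9 acts in the lumbar axis and the limbs, at 4.00, 19.1, 18.4 and 9.08 CPM in the primary tumor, had 1 UMI in the metastasis and 0 in unchallenged lung, where it was at least 75.5-fold lower.

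**Figure D5:**
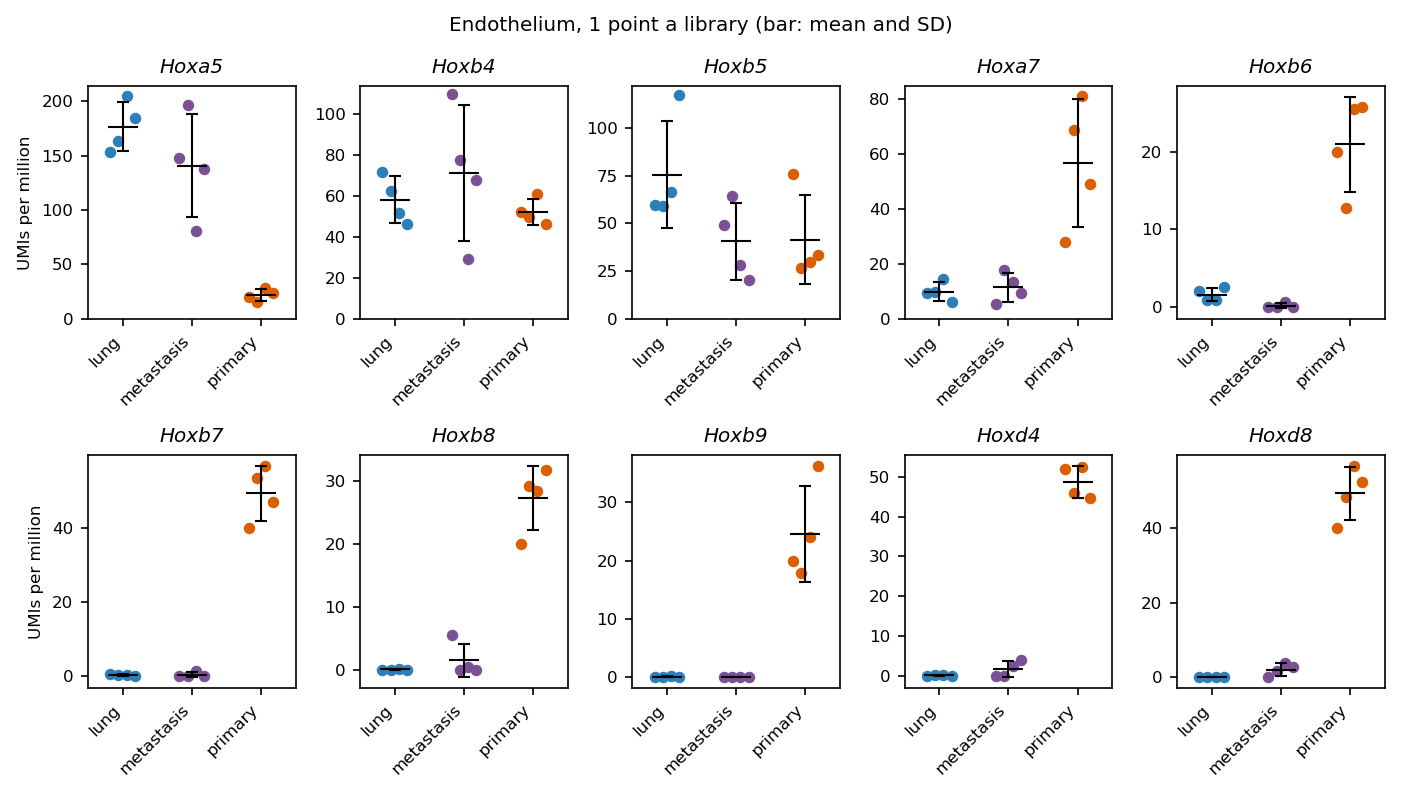
CPM of 10 Hox genes in endothelium (y axes, linear scale) for each of the 12 libraries of the 3 tissues (x axis); points are libraries, bars the mean and SD. Hoxa5 is lower in the 4 primary tumor libraries than in the other 8, Hoxa7, Hoxb6-Hoxb9, Hoxd4 and Hoxd8 are higher there, and Hoxb4 and Hoxb5 overlap.

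Of the 39 Hox genes, 14 passed the filter on low counts in endothelium. For the metastasis against the primary tumor 9 were called, 1 higher and 8 lower, where 11.7% of 9617 genes were called (6.52% higher and 5.22% lower). For unchallenged lung against the primary tumor 9 were called, also 1 higher and 8 lower, where 28.4% of genes were (13.8% higher and 14.6% lower). Both comparisons use the same primary tumor libraries. The median log2 fold change of the Hox genes tested was −3.18 and −3.35, beside 0.04 and 0.02 over all genes. Hoxb6-Hoxb9, Hoxd4, Hoxd8 and Hoxd9 were low in the lung tissues and passed the filter through the primary tumor, where they were high. That filter thus in part set the medians and the counts of lower genes. Fibroblast markers in the endothelial class summed to 747-2501 CPM in the primary tumor, 93-1064 CPM in the metastasis and 51-527 CPM in unchallenged lung, and their part in the HoxB and HoxD values was not tested. Hoxc6 and Hoxc8, which were among the fibroblast genes above, had 4 UMIs each in primary tumor endothelium.

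In the metastasis against unchallenged lung 2 Hox genes were called in endothelium, Hoxd8 (log2 fold change 4.72 ± 0.68, adjusted p = 0.00161) and Hoxd4 (3.34 ± 0.71, adjusted p = 0.0151), both higher in the metastasis, where 3.47% of genes were called (2.75% higher and 0.728% lower). These are small counts, with 14 UMIs of Hoxd8 against 1 and 10 of Hoxd4 against 3, and ratios of pooled levels of 53.8 (exact 95% counting interval 8.19-2275) and 12.8 (3.30-72.4). All 31 HoxD UMIs of the metastasis endothelium lay in 17 cells, 7 of which had 2 or more. The 17 cells belonged to endothelial cluster 12 and to replicates 4, 5 and 6 (1, 11 and 5 cells), and none of their barcodes occurred in a TME library of the primary tumor. In the primary tumor 240 of 550 endothelial cells (43.6%) had a HoxD UMI, and in unchallenged lung 4 of 4615. No call was left without metastasis replicate 5, 1 was left without replicate 6, and 4 genes were called without replicate 4. In endothelial cells of cluster 12 alone, Hoxd4 was not called (log2 fold change 2.03, adjusted p = 0.113), nor with the replicate number as a block (3.06, adjusted p = 0.0667). Within sequencing run 3, 5 Hox genes were called.

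Endothelium was made up of 3 clusters, of which clusters 5 and 17 were 99.8% lung or metastasis cells, while cluster 12 held 541 of the 550 primary tumor cells with 662 of the metastasis and 742 of unchallenged lung. Within cluster 12 the primary tumor still differed from the lung tissues. Hoxa5 was at 32.0, 243, 68.4 and 131 CPM in metastasis replicates 1-3, 4, 5 and 6 (10, 23, 540 and 89 cells), at 13.8, 15.3, 28.4 and 23.5 CPM in the primary tumor and at 184, 235, 249.7 and 285 CPM in unchallenged lung. The metastasis overlapped unchallenged lung, and its lowest library, which rests on 1 UMI, lay close to the highest of the primary tumor. Hoxb6-Hoxb9 together had 5 UMIs (2.30 CPM), 395 UMIs (130 CPM) and 3 UMIs (1.10 CPM) in the metastasis, the primary tumor and unchallenged lung.

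Fibroblasts and endothelial cells of the same primary tumors thus carried different Hox genes, which was tested in a fit of 16 sums from the 8 libraries that held both classes. In the primary tumor 16 of 23 tested Hox genes differed between the classes, where 22.5% of genes did (10.5% higher and 11.9% lower in endothelium). Higher in endothelium were 11 genes, among them Hoxa7 (log2 difference 2.05 ± 0.30), Hoxb7 (1.52 ± 0.34), Hoxb8 (2.16 ± 0.50), Hoxb9 (2.42 ± 0.66), Hoxd4 (2.06 ± 0.44) and Hoxd8 (1.22 ± 0.35). Lower were Hoxa9 (−3.04 ± 0.86), Hoxc6 (−5.38 ± 0.73), Hoxc8 (−4.81 ± 0.74), Hoxc9 (−4.04 ± 0.93) and Hoxc10 (−3.75 ± 1.05). The genes called as lower passed the filter on low counts through fibroblasts of the primary tumor, and Hoxd10 through its endothelium. The filter thus in part set the count for the primary tumor. In unchallenged lung 4 of 23 differed, where 25.8% of genes did (10.5% higher and 15.3% lower in endothelium). Hoxa5 was higher in endothelium (1.08 ± 0.29), and Hoxa7 (−1.79 ± 0.32), Hoxb6 (−3.51 ± 0.78) and Hoxb7 (−4.39 ± 0.79) were lower. Some tested genes, such as Hoxa9, Hoxc8, Hoxc9 and Hoxd10, were at 0 in both classes of unchallenged lung and could not be called. The count for the lung is thus not comparable with that for the primary tumor or with the share of all genes. Without primary tumor replicates 4, 5 or 6 the count for the primary tumor was 10, 5 and 6, and without unchallenged lung replicate 5 that for the lung was 2. The fibroblast sums of this fit included the cells led by melanoma, ciliated, macrophage and AT-2 genes. Their part in these differences was not tested.

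The change from the primary tumor to the lung itself differed between the classes for a few genes. Hoxa7 fell in endothelium and was at 17.9 and 20.5 CPM in fibroblasts of the metastasis, 19.7, 10.2 and 13.7 CPM in those of the primary tumor and 40.2, 48.3 and 12.4 CPM in those of unchallenged lung. The difference of the log2 fold changes was −2.73 ± 0.53 (adjusted p = 0.0195) for the metastasis, where Hoxa7 was the 1 Hox gene called (1.95% of genes), and −3.84 ± 0.44 (adjusted p = 2.0e-04) for unchallenged lung. For unchallenged lung Hoxb7, Hoxb6 and Hoxb4 also passed (−5.91 ± 0.86, −5.28 ± 1.01 and −1.76 ± 0.44), so that 4 of 23 Hox genes were called, where 7.93% of genes were. The Hoxa7 call for the metastasis was lost without either metastasis library or without primary tumor replicate 5 or 6, and the 4 calls for unchallenged lung became 2 without primary tumor replicate 6 or lung replicate 5 and 7 without lung replicate 6. In sorted melanoma cells Hoxa7 had a mean of 14.5 CPM in the primary tumor and 22.7 CPM in the metastasis. Cells led by melanoma genes were part of the fibroblast class, and their part in the Hoxa7 difference was not tested.

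In melanoma cells, with 2 libraries in each organ, no Hox gene was called, and the Hox UMIs came from HoxA in both organs. HoxA genes gave 99.9-100% of the Hox UMIs in every sorted MM library, and 7 Hox genes, all of HoxA, passed the filter. With libraries pooled, which weights the larger ones, groups 6-8 gave 61.0% of the Hox UMIs in the metastasis and 36.0% in the primary tumor. That difference in share was not tested. Hoxa7 was at 11.7 and 33.7 CPM in metastasis replicates 4 and 5 and at 6.02 and 23.0 CPM in primary tumor replicates 4 and 5 (log2 fold change 0.78 ± 0.63, adjusted p = 1.00). Hoxa5 was at 9.51 and 9.95 CPM against 6.34 and 11.8 CPM (0.11 ± 0.42). Hoxa4 was at 7.32 and 5.64 CPM against 5.85 and 9.11 CPM, Hoxa3 at 2.93 and 4.34 CPM against 3.79 and 6.53 CPM, and Hoxa2 at 0.732 and 0.701 CPM against 0.615 and 1.37 CPM. The 2 organs overlapped for these genes. Between libraries of the same number Hoxa7 was higher and Hoxa3 lower in the metastasis, and Hoxa2, Hoxa4 and Hoxa5 went either way. Of these matches by number, replicates 5 come from the same mouse and replicates 4 from different mice. By edgeR 0 Hox genes were called, 0 had an unadjusted p under 0.05 and DESeq2 called 0, where 0.0981% of 14273 genes were called. Metastasis replicate 4 had 268 melanoma cells with 44 Hox UMIs, so that small differences were not detectable. Groups 9-13 had 3 UMIs in the melanoma cells of the metastasis and 0 in those of the primary tumor.

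Hox proteins bind DNA with TALE cofactors such as Meis and Pknox. In fibroblasts 8 of 9 cofactor genes were tested. Meis1 was at 168-201 CPM in the metastasis, 17.1-30.7 CPM in the primary tumor and 79.5-155 CPM in unchallenged lung, and was the 1 cofactor called for the metastasis (log2 fold change 3.04 ± 0.41, adjusted p = 0.0103), where 1.14% of all genes were called as higher. For unchallenged lung Meis1 was also called as higher than in the primary tumor (2.47). In endothelium 7 were tested, of which Meis1 (3.99 ± 0.93), Meis2 (2.60 ± 0.70) and Pknox2 (3.13 ± 0.69) were called as higher in the metastasis than in the primary tumor, where 6.52% of all genes were. Meis1 (4.88), Meis2 (2.59), Pknox2 (2.97) and Pknox1 (1.11) were called as higher in unchallenged lung, where 13.8% of all genes were. No cofactor was called as lower in the lung.

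Of 17 transcripts of the Hox clusters and genes that flank them, 7 were tested in fibroblasts and 0 were called by edgeR, with 1 at an unadjusted p under 0.05 in each comparison with the primary tumor. In endothelium 6 were tested, of which Skap2 next to HoxA was higher (0.70 and 0.87) and Mtx2 next to HoxD lower (−1.02 and −0.65) in the metastasis and in unchallenged lung than in the primary tumor, and the HoxA antisense transcript Hotairm1 was higher in unchallenged lung (0.89). That is 2 and 3 of 6, where 11.7% and 28.4% of all genes were called. Of 22 Polycomb and Trithorax genes, which keep Hox genes silent or active, 20 were tested in each class. For the metastasis against the primary tumor 0 were called by edgeR in either class (3 and 5 at an unadjusted p under 0.05 in fibroblasts and endothelium). For unchallenged lung Cbx7 was called as higher in both classes (4.00 ± 0.48 and 3.72), with Ezh1 (0.93) and Phc1 (1.13) in endothelium. These counts, 1 of 20 and 3 of 20, lie below the 12.2% and 28.4% of all genes called. None of the 6 ParaHox and Cdx genes passed the filter in any class.

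Other lists of body position genes were read in the same libraries. Of 5 genes of lung mesenchyme, Tbx4 (1 UMI in the primary tumor) and Tbx5 were called as higher in fibroblasts of the metastasis than of the primary tumor, with Tbx5 at 12.3-21.3 CPM against 0-1.31 CPM (log2 fold change 4.44 ± 0.75, adjusted p = 0.0223) and 31.9-102 CPM in unchallenged lung, where 1.14% of all genes were called as higher in the metastasis. For unchallenged lung 4 were called, namely Tbx4, Tbx5, Tcf21 (0 UMIs in the primary tumor) and Foxf1 (2.65 ± 0.52), a forkhead factor of lung mesenchyme and vessels, where 6.89% of all genes were called as higher. In endothelium 2 of the 5 were tested, Foxf1 and Tbx2, and both were called as higher than in the primary tumor in the metastasis (3.53 ± 0.67 and 2.92 ± 0.54), where 6.52% of all genes were, and in unchallenged lung (4.57 and 3.87), where 13.8% were. Of 5 genes of trunk dermis, En1 had 99 UMIs in fibroblasts of the primary tumor and 0 in both lung tissues, and Tbx15 had 133 against 2 in the metastasis and 0 in unchallenged lung. En1, Tbx15 and Tbx18 (−3.57 ± 0.65) were called as lower in unchallenged lung, where 5.30% of all genes were, and 0 of the 5 for the metastasis by edgeR, where 3 had an unadjusted p under 0.05.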

How the data were processed

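The authors made the deposited counts, UMIs per gene and cell barcode, with Cell Ranger 6.1.1 on GRCm38 (mm10) and Seurat 3.2.2, and removed cells of high ribosomal or mitochondrial share and of extreme numbers of detected genes. Their table of normalized values was not used. From the deposited counts, library names that held the same cells were counted once, and 1 library name that matched no sample was left out. No doublet caller was run here. Cells were clustered with Seurat 5.3.0 (2000 variable genes without Hox genes, 17 principal components, 20 neighbors, resolution 0.5). A class was named where at least 3 of its markers were raised in the cluster, more than for any other class. A marker counted as raised at a log2 fold above 1 in at least 10% of cells. A cluster whose leading genes held more markers of another class stayed unnamed. Fibroblast-like, pericyte-like and smooth muscle-like cells were clustered again on 12 components. UMIs were summed per library and class (at least 20 cells, 10 for pericytes) and tested with edgeR 4.0.16 (filterByExpr, TMM, robust quasi-likelihood fit, 1 fit for the 3 tissues), with Benjamini-Hochberg adjustment over all genes tested and calls at an adjusted p under 0.05. DESeq2 1.42.0 was an alternative. The scripts were tested on simulated data. The fit of both classes together was chosen after seeing the data.

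The Hox genes and the other lists were chosen with earlier results of these data known. Named with values were all Hox genes called in the class, its 5 highest by mean CPM, and those with 0 UMIs in 1 tissue and at least 20 in another. A lack of overlap between tissues in a gene named for a call or for 0 UMIs follows in part from that choice. The share of all genes without overlap was not computed. Of other lists, members called are named. A few items are not reported here. By the deposited metadata, replicates 5 and 6 of the primary tumor and metastasis come from the same mice, the pools 1-3 share 2 of 3 mice, and replicates 4 are of different mice. The deviations of same-numbered metastasis and primary tumor libraries from their group means correlated at −0.21 and −0.09 in fibroblasts (replicates 5 and 6), and at 0.25, 0.19 and 0.24 in endothelium (1-3, 5 and 6). Differently numbered pairs of these tissues ranged from −0.31 to 0.26 in endothelium. With 2 metastasis libraries in fibroblasts the deviations mirror each other, so that those values are not independent.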

Additional observations from a re-analysis of the deposited data

Results flagged for a closer look

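Hoxb5 in endothelium had a library far from the others of its group in 2 tissues. In the primary tumor replicate 1-3 was at 75.9 CPM, beside 26.7-33.3 CPM in replicates 4, 5 and 6. In unchallenged lung replicate 6 was at 117.0 CPM, beside 59.0-66.3 CPM in replicates 1, 4 and 5. Such a gap was looked for in 27 groups of 4 libraries, and chance alone gives about 1 in 20.

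The change between organs differed between endothelium and fibroblasts, by a test of the difference of the log2 fold changes. For the metastasis against the primary tumor this held for Hoxa7 (−2.73). For unchallenged lung against the primary tumor it held for Hoxa7 (−3.84), Hoxb7 (−5.91), Hoxb6 (−5.28) and Hoxb4 (−1.76). Each value is the change in endothelium minus that in fibroblasts, so that the negative sign means a lower value in the lung relative to the primary tumor in endothelium than in fibroblasts. The fibroblast class included cells led by melanoma genes, whose part in these values was not tested.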

How the results depend on the processing

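Alternatives were followed for the Hox genes called in a comparison, and none of these calls changed direction. Some alternatives, such as replicates 5 and 6 of 1 sequencing run or no mesothelial-like subcluster, also dropped libraries. Over the alternatives other than leaving out 1 library in turn, 336 of 348 values of single genes kept their side of the threshold and 12 lost the call. Over those that leave out 1 library, 471 of 546 did and 75 did not. In fibroblasts, leaving out 1 library gave 0-6 calls for the metastasis and 6-11 for unchallenged lung against the primary tumor, and 0-1 for the metastasis against unchallenged lung (DESeq2 1). Without the mesothelial-like subcluster 1 metastasis library fell under 20 cells and 0 Hox genes were called for the metastasis, with fitted log2 fold changes of the 4 lost genes about as large as before or larger (2.92 for Hoxa5 and −8.61 to −9.61 for Hoxc6, Hoxc8 and Hoxc9). Without a filter on low counts 16 Hox genes were called for unchallenged lung in fibroblasts, 19 in endothelium and 2 for the difference between classes in the metastasis. In endothelium, leaving out 1 library gave 9-11, 9-13 and 0-4 calls in the 3 comparisons, and for the metastasis against unchallenged lung 5 were called in replicates 5 and 6 of 1 sequencing run and 1 without the capillary clusters. The differences between classes gave 0-2 and 2-7 calls for the 2 changes of organ, 5-17 in the primary tumor and 2-6 in unchallenged lung. A fit of pericytes together with smooth muscle held 0 Hox genes past the filter. In melanoma cells the count was 0 throughout, and the share of groups 9-13 in primary tumor fibroblasts was 20.3-24.6% without 1 library. The causes of these shifts were not tested. By depth, 3 UMIs over a tissue stand for 0.177-0.980 CPM in endothelium and 5.13-161 CPM in pericytes.

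The replicate number pairs libraries of the same mice for replicates 5 and 6 of the primary tumor and metastasis, in part for the pools 1-3, and for no unchallenged lung library. With that number as a block, 4, 11 and 0 Hox genes were called in fibroblasts and 9, 10 and 1 in endothelium, in the order metastasis and unchallenged lung against the primary tumor and metastasis against unchallenged lung. Hoxd4 in endothelium of the metastasis against unchallenged lung was the call lost with the block, in a comparison that shares no mouse, and no call was gained or lost in melanoma cells.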

Other observations

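Smooth muscle-like cells, few in number, followed the lung pattern. The 100 cells of the metastasis and the 30 of unchallenged lung had 64 Hox UMIs each, over 12 Hox genes each, with 0 UMIs from HoxC, HoxD or groups 9-13. The primary tumor held 2 such cells with 0 Hox UMIs, so that no comparison could be made.

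Prrx1, a homeobox gene of limb and skin mesenchyme, was the 1 trunk dermis gene tested in endothelium. It was at 10.9-86.1 CPM in the metastasis (286 UMIs), at 3.82-21.2 CPM in the primary tumor (39 UMIs) and at 0-0.845 CPM in unchallenged lung (7 UMIs). By edgeR it was called as higher in the metastasis than in unchallenged lung (log2 fold change 6.63 ± 0.77), where 2.75% of all genes were, and as lower in unchallenged lung than in the primary tumor (−4.72 ± 0.87, adjusted p = 0.00105), where 14.6% were. Its log2 fold change of 1.90 for the metastasis against the primary tumor was not called. Fibroblast markers summed to 93-1064 and 51-527 CPM in the same metastasis and unchallenged lung libraries. Their part in the difference was not tested.

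Macrophages had a Hox sum of 15.0 CPM in the primary tumor, 20.5 CPM in the metastasis and 54.8 CPM in unchallenged lung, against 530, 268 and 399 CPM in endothelium.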
